A study of Mus musculus with 6 samples.

Results

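Genes of activin subunits, of their receptors and of the follistatin family were compared between 2 mouse endothelial cell lines. The set holds the 9 genes Inhba, Inhbb, Acvr1, Acvr1b, Acvr2a, Acvr2b, Fst, Fstl1 and Fstl3, taken by symbol from a count table of 24411 genes. The names were chosen by their role, with their log2 differences between these same lines already known, so levels and differences of the 9 are given as a description and no test is attached to them. The data were 6 bulk RNA-seq libraries, 3 of bEnd.3 and 3 of UV2. bEnd.3 derives from mouse brain endothelium that expresses the polyomavirus middle T oncogene, and the labels name BALB/c as its strain. UV2, also written UV♀2 in the labels, is given only as an endothelial line of strain (BALB/c x C57BL/6)F1. Both lines were grown to confluency and then held without serum for 3 days before RNA was taken, and neither carried a further treatment.

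Activins are dimers of inhibin beta subunits, and Inhba and Inhbb encode the beta-A and beta-B chains of activin A and activin B. The dimer binds a type II receptor kinase (ACVR2A or ACVR2B), which then activates the type I receptor ACVR1B, and the receptor complex phosphorylates SMAD2 and SMAD3. Follistatin (Fst) and follistatin-like 3 (Fstl3) are secreted proteins that wrap around the dimer and keep it from its receptors, and Fst is itself a known activin-induced gene in several cell types. In endothelium, activin signalling is known for effects on growth and on barrier function.

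Total expected counts were 21306441 to 28748128 per library, and 1 count was worth 0.0339 to 0.0485 CPM (each count as a share of its library's TMM-adjusted total). The labels do not say whether libraries of the same line are separate cultures, so the spread between them, and every p-value, may reflect technical variation. Intervals and floors from counts cover counting error alone, since reads can be copies of the same molecule. Of 10 endothelial markers, all were tested and their summed level was 12948 to 13698 CPM in bEnd.3 and 11720 to 13334 CPM in UV2. By the test described below, Tie1 was higher in UV2, Cldn5, Emcn, Egfl7 and Erg were lower, and the other 5 did not pass. Cldn5 was nearly absent from UV2, with 18 counts over its libraries, and Emcn had 780.2 ± 57.2 CPM in bEnd.3 against 281 ± 29.2 CPM in UV2. The summed level of 8 fibroblast and mural markers was 3.33 to 3.501 CPM in bEnd.3 and 30.4 to 73.1 CPM in UV2. Col3a1, Pdgfra and Pdgfrb were higher in UV2, and Col3a1 had the highest UV2 mean of the list, at 32.1 ± 16.6 CPM. The means of Cldn5 in UV2 and of Pdgfrb in bEnd.3 were under the low-count filter's minimum of 0.419 CPM. Each was thus tested through the other line only. Acta2, not tested, had 0 counts in bEnd.3 and 39 in UV2. Cspg4, not tested, went the other way, with 7 counts in bEnd.3 and 1 in UV2. Dcn, Lum and Rgs5 held at most 4 counts in either line. The summed level of 5 leukocyte markers was 89.7 to 159 CPM in bEnd.3 and 253 to 343 CPM in UV2. Nearly all of it was Cd68, which was higher in UV2. Csf1r did not pass, with 36 counts in bEnd.3 and 39 in UV2. Itgam, not tested, had 3 counts in bEnd.3 and 19 in UV2, and Ptprc and Adgre1 held at most 1 count. Of 5 epithelial markers the sum did not exceed 0.501 CPM. The part of these marker differences in the results below was not tested. In bulk RNA, a smaller share of cells with a transcript and less transcript per cell cannot be told apart.

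Of the 9 genes, 3 were more than 2-fold higher in UV2 by their fitted difference (Acvr1b, Fstl1 and Fstl3), where 14.3% of all tested genes were. A further 3 were more than 2-fold lower in UV2 (Inhba, Inhbb and Fst), where 13.0% of all tested genes were. The other 3, all receptors, lay within 2-fold. For 8 of the 9 genes the bEnd.3 and UV2 libraries did not overlap, as for 73.2% of all tested genes. The median log2 difference was 0.11 for the 9 genes and -0.01 for all 12720 tested genes. All 9 passed the filter on low counts, but Inhba and Inhbb did so through bEnd.3 only and Fstl3 through UV2 only. Being under the filter's minimum in every library of the other line, these 3 could be tested only through a higher level in the line that passed.

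**Figure D1:**
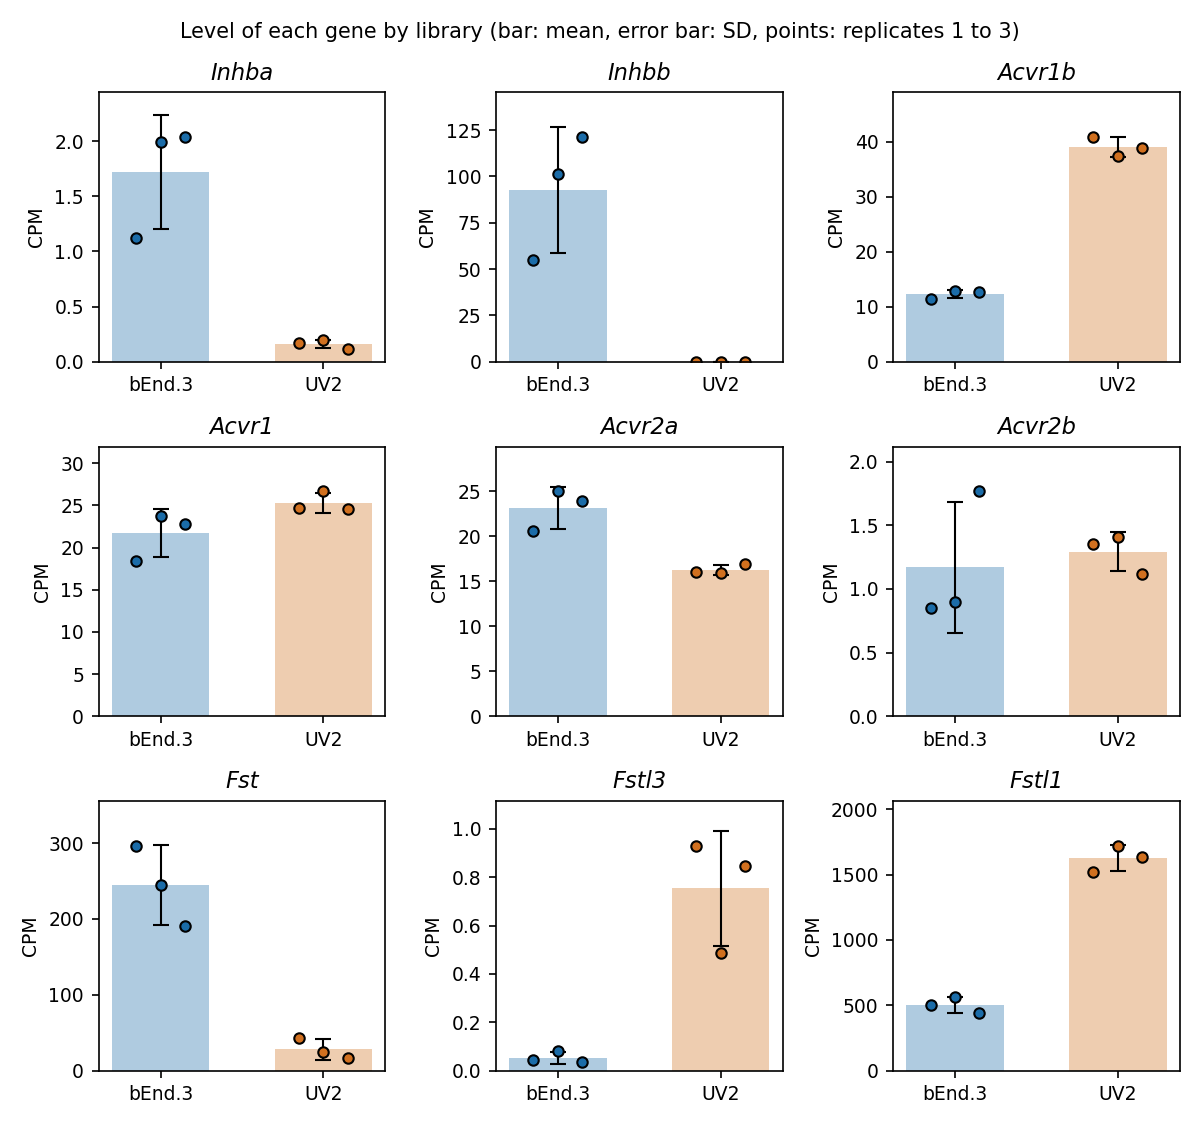
Each panel shows 1 gene, with CPM on a linear axis from 0 for the 3 bEnd.3 and the 3 UV2 libraries (points, replicates 1 to 3 from left to right), their mean (bar) and SD (error bar). Inhba, Inhbb and Fst are low in every UV2 library, Acvr1b, Fstl1 and Fstl3 are high in every UV2 library, and the points of the lines overlap for Acvr2b alone.

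Of the ligand genes, Inhbb had transcript in bEnd.3 libraries alone. Inhbb (chromosome 1, 119415463 to 119422248, GRCm38.p6) stood at 54.9, 101 and 121 CPM in bEnd.3 replicates 1, 2 and 3, and held 0 counts in each UV2 library. The groups did not overlap, and replicate 1 was the low one within bEnd.3. The mean in bEnd.3 was 92.5 ± 34.1 CPM (SD, n = 3), so the level in UV2 was at least 2167-fold lower, taking 3 counts over its 3 libraries (0.0427 CPM) as the floor. Behind the bEnd.3 value stood 7289 counts.

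Inhba, the beta-A gene (chromosome 13, 16004256 to 16031609), was scarce in both lines. Its levels were 1.12, 1.99 and 2.04 CPM in bEnd.3 replicates 1, 2 and 3, and 0.169, 0.194 and 0.116 CPM in UV2 replicates 1, 2 and 3. No UV2 library reached the lowest bEnd.3 library, and bEnd.3 replicate 1 was again the low one of its line. The log2 difference was -3.42 (SE 0.39, UV2 minus bEnd.3), from 134 counts in bEnd.3 and 11 in UV2. Here and below, SE is the size of the log2 difference over the square root of the F statistic from edgeR's quasi-likelihood fit. It is thus not a separate estimate of error. For genes of the set it is a description and no test, since they were chosen with their differences known. The ratio of bEnd.3 to UV2 from these 134 and 11 counts was 11.2 (95% counting interval 6.07 to 23.0). The interval leaves out the spread between libraries and is no test, since Inhba was chosen with its difference known. With Inhbb at 0, the 11 Inhba counts were the whole of the beta-A and beta-B signal in UV2. The alpha subunit gene Inha, whose product turns a beta chain into inhibin, and the other beta genes Inhbc and Inhbe had 0 counts in all 6 libraries, which allows up to 3 counts over the 3 libraries of a line.

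The 250 bases before the annotated start were read for the genes that lay more than 2-fold apart, to set the start regions of the ligand genes beside those of genes with more transcript in UV2. Sequences are from RefSeq on GRCm38.p6, to which 8 of the 9 genes matched, all but Fst. They run 5′ to 3′ along the gene, and capitals mark CG dinucleotides. The Inhba window (chr13:16011601-16011850, plus strand) lies before a start inside the gene's annotated span. The others are Inhbb (chr1:119422249-119422498, minus strand), Acvr1b (chr15:101173822-101174071, plus strand), Fstl1 (chr16:37776805-37777054, plus strand) and Fstl3 (chr10:79777024-79777273, plus strand).
Inhba: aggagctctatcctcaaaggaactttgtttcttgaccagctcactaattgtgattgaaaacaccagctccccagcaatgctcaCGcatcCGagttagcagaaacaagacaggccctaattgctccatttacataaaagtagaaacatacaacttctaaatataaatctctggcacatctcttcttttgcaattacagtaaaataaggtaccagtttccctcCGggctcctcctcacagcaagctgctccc
Inhbb: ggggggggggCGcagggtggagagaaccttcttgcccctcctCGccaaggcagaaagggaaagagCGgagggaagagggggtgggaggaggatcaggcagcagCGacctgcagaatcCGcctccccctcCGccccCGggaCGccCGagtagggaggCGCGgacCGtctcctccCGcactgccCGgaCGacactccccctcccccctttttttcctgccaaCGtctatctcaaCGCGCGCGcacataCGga
Acvr1b: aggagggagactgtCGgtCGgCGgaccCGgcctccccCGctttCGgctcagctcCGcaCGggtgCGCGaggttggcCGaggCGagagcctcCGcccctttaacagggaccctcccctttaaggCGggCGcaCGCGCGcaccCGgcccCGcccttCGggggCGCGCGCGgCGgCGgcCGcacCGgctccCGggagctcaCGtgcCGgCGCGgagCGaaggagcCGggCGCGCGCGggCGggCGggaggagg
Fstl1: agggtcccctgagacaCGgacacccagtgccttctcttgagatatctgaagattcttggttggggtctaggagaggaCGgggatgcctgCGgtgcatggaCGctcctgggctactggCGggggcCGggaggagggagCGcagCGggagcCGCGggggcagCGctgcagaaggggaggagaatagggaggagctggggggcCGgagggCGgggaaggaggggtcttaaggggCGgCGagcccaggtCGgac
Fstl3: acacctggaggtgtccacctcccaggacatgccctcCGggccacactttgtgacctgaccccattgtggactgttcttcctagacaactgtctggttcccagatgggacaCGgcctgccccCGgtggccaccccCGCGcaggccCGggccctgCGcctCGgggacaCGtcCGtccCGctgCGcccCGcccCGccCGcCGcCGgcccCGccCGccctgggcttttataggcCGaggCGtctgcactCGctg

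The ligand genes have unlike start regions. The Inhba window held 3 CG dinucleotides and 43.2% G plus C, and the Inhbb window held 21 and 68.0%. Over all 32841 windows of this length the medians were 6 and 52.4%. Acvr1b had 42 CG dinucleotides, Fstl3 22 and Fstl1 16, while the 3 receptor genes within 2-fold had 46 (Acvr1), 49 (Acvr2a) and 24 (Acvr2b). All windows with a value but that of Inhba were thus above the median, whichever line had more transcript. The TATA box letters TATAAA, on either strand, occurred once each in the Inhba and Fstl3 windows and in 12.4% of all windows. The SMAD box letters CAGAC, on either strand, occurred 2 times in the Fstl3 window, once each in those of Acvr2a and Acvr2b, and in 42.2% of all windows. The letters TGACGTCA of the cAMP response element were in none of the 8 windows and in 1.55% of all windows. These 3 motifs were searched without regard to overlap between them.

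Genes around Inhbb were read in both lines to place its 0 counts. Neighbours were the 3 nearest genes of the count table on each side. Predicted genes named Gm plus a number, Rik clones and other genes of the set were left out. Ralb, which encodes a Ras-like GTPase and lies 48.1 kb away, stood at 135 ± 5.75 against 188 ± 2.83 CPM (n = 3 each, bEnd.3 first here and below). It was higher in UV2 (log2 difference 0.48, SE 0.06, adjusted p = 0.000279). This and every adjusted p below come from edgeR's quasi-likelihood fit over all tested genes, adjusted by Benjamini-Hochberg. Tmem185b, at 103.9 kb, and Ptpn4, a protein tyrosine phosphatase gene at 230.2 kb, were lower in UV2. Tmem185b had 37.3 ± 1.61 against 25.9 ± 0.811 CPM (log2 difference -0.53, SE 0.08, adjusted p = 0.000478). Ptpn4 had 82.5 ± 4.52 against 23.8 ± 4.99 CPM (log2 difference -1.79, SE 0.15, adjusted p = 2.61e-05). On the other side, the Hedgehog effector gene Gli2 and the microRNA gene Mir6346 had 0 counts in both lines. Tfcp2l1, a transcription factor gene 730.3 kb from Inhbb, fell from 88 counts in bEnd.3 to 5 in UV2 (log2 difference -3.94, SE 0.56, adjusted p = 0.000469). In UV2 it was under the low-count filter's minimum of 0.419 CPM, so it was tested through bEnd.3 only. Its call could thus only be lower, and its adjusted p adds no support. The 3 genes on the Ralb side were thus transcribed in UV2 libraries that held no Inhbb count. Of the 54 neighbours of the 9 genes by this rule, 36 were tested, 15 were higher and 10 lower in UV2, where 33.9% and 33.3% of all tested genes were.

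**Figure D2:**
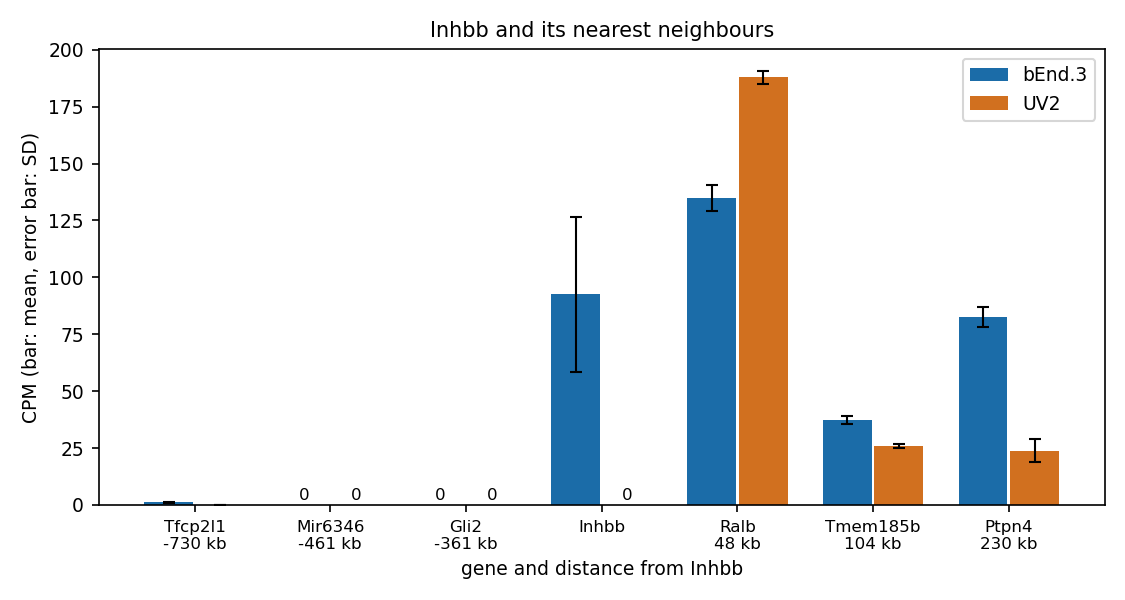
Mean CPM (bars, linear axis from 0) with SD (error bars) over the 3 libraries of each line for Inhbb and its 3 neighbours on each side. Neighbours follow the rule in the text, and the gap to Inhbb in kb stands under each name. Inhbb has a bar in bEnd.3 alone, while Ralb, Tmem185b and Ptpn4 have bars in both lines.

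Of the 4 receptor genes, Acvr1b was the 1 beyond 2-fold. Acvr1b, the type I receptor of activins also called ALK4 (chromosome 15, 101174072 to 101213684), had 11.5, 12.9 and 12.7 CPM in bEnd.3 replicates 1, 2 and 3 and 40.9, 37.4 and 38.8 CPM in UV2 replicates 1, 2 and 3. Every UV2 library was above every bEnd.3 library, and the libraries of each line lay close together. The means were 12.3 ± 0.755 and 39.05 ± 1.75 CPM (SD, n = 3 each), a log2 difference of 1.66 (SE 0.09). Acvr1b stands 28.7 kb from Acvrl1, which encodes the endothelial type I receptor ALK1, on chromosome 15. Acvrl1 was higher in UV2 as well, with 508 ± 72.0 against 921 ± 43.8 CPM (log2 difference 0.86, SE 0.11, adjusted p = 0.000279).

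Acvr1, the type I receptor ALK2, which mainly serves bone morphogenetic proteins (chromosome 2, 58446438 to 58566828), was at similar levels in the lines. It had 18.4, 23.8 and 22.8 CPM in bEnd.3 replicates 1, 2 and 3 and 24.7, 26.7 and 24.5 CPM in UV2 replicates 1, 2 and 3. The UV2 libraries were all above those of bEnd.3, but the nearest libraries of the lines, at 23.8 and 24.5 CPM, were closer than the 18.4 and 23.8 CPM within bEnd.3. The log2 difference was 0.22 (SE 0.11). Its neighbour Acvr1c, the type I receptor ALK7, had 0 counts in all libraries, which leaves Acvr1b as the classical activin type I receptor gene with reads.

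Acvr2a, the more abundant type II receptor gene (chromosome 2, 48814109 to 48903264), had 20.6, 25.0 and 23.9 CPM in bEnd.3 replicates 1, 2 and 3. In UV2 replicates 1, 2 and 3 it had 16.0, 15.9 and 16.9 CPM, all below the bEnd.3 libraries. The log2 difference was -0.51 (SE 0.10). Its expected counts were not whole in any library, so some of its reads also fitted other genes. Acvr2b, the other type II receptor gene (chromosome 9, 119401583 to 119442148), had 0.852, 0.896 and 1.77 CPM in bEnd.3 replicates 1, 2 and 3 and 1.35, 1.41 and 1.12 CPM in UV2 replicates 1, 2 and 3. These overlapped, since bEnd.3 held both the lowest and the highest library. The log2 difference was 0.11 (SE 0.33), and its sign turned without bEnd.3 replicate 1 (-0.065) or replicate 2 (-0.038). It rested on 93 and 90 counts in all and on bEnd.3 libraries that lay far apart, and the difference was smaller than its SE. The smallest difference that could be detected was not computed.

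The follistatin family genes went in different directions. Fst (chromosome 13, 114452262 to 114458989) had 296, 245 and 191 CPM in bEnd.3 replicates 1, 2 and 3 and 43.4, 24.4 and 16.8 CPM in UV2 replicates 1, 2 and 3. All UV2 libraries were well below all bEnd.3 libraries. The means were 244 ± 52.7 and 28.2 ± 13.7 CPM (SD, n = 3 each), a log2 difference of -3.11 (SE 0.34). Within bEnd.3, replicate 1 was the highest library for Fst and the lowest for both Inhba and Inhbb.

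Fstl3, which like follistatin binds activins (chromosome 10, 79777274 to 79782630), was near the limit of detection in bEnd.3, with 1, 2 and 1 counts in replicates 1, 2 and 3. In UV2 replicates 1, 2 and 3 it had 22, 10 and 22 counts, or 0.9295, 0.485 and 0.848 CPM, all above bEnd.3. The ratio of UV2 to bEnd.3 was 14.7 (95% counting interval 5.41 to 55.8), and the log2 difference was 3.74 (SE 0.51). Even so its level in UV2 was 0.754 ± 0.237 CPM (SD, n = 3). As for Inhba, the counting interval leaves out the spread between libraries and is no test. The higher Fstl3 level in UV2 did not bring it near that of Fst in the same libraries.

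Fstl1 (chromosome 16, 37777055 to 37836516) encodes a protein with a follistatin-like domain that is a more distant relative, known as a secreted glycoprotein of mesenchymal and vascular cells. It had 501, 565 and 440.1 CPM in bEnd.3 replicates 1, 2 and 3 and 1523, 1719 and 1635 CPM in UV2 replicates 1, 2 and 3. Every UV2 library was above every bEnd.3 library, and some of its expected counts were not whole. The means were 502 ± 62.6 and 1626 ± 98.3 CPM (SD, n = 3 each), a log2 difference of 1.695 (SE 0.11). The summed fibroblast and mural markers were higher in UV2 too, by the values given above, and their part in the Fstl1 level was not tested.

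**Figure D3:**
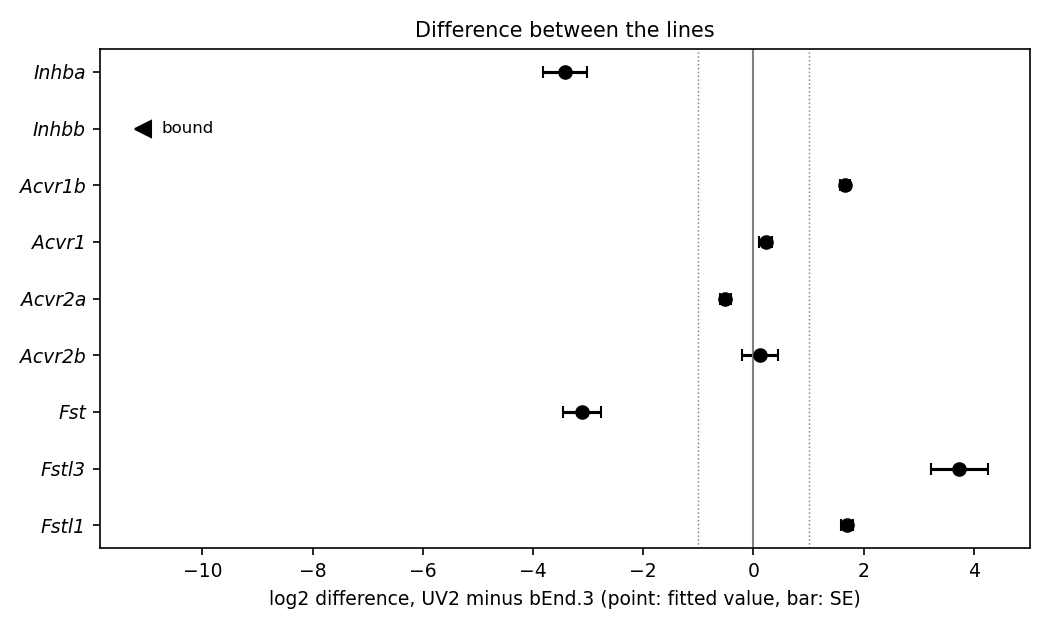
Fitted log2 difference (UV2 minus bEnd.3, horizontal axis) with its SE, as defined above, for each gene, and dotted lines at a 2-fold difference. Inhbb is drawn as an arrowhead at its bound of 2167-fold lower, Inhba and Fst lie left of the dotted lines, Acvr1b, Fstl1 and Fstl3 right of them, and the other receptors between them.

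Levels of different genes were set against each other per length, as TPM, in which counts are divided by gene length (GENCODE vM21 exons) and scaled to the same total in each library. In bEnd.3 the order was Fstl1 at 403 ± 50.5 TPM, Fst at 209.6 ± 43.2 TPM and Inhbb at 86.01 ± 32.3 TPM (SD, n = 3), with no overlap between neighbours. Acvr1 at 17.7 ± 2.51 TPM and Acvr2a at 16.1 ± 1.75 TPM followed and overlapped, and Acvr1b came next at 11.03 ± 0.789 TPM. Acvr2b (1.18 ± 0.526 TPM) and Inhba (1.06 ± 0.329 TPM) overlapped, and Fstl3 was last at 0.0862 ± 0.0405 TPM. Fstl1, Fst and Inhbb thus held the top of the order in bEnd.3, above all receptors of the set.

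In UV2 the order was different below Fstl1, which stood at 1248 ± 62.6 TPM. Acvr1b at 33.4 ± 1.92 TPM overlapped with Fst at 23.3 ± 11.7 TPM, and Fst overlapped with Acvr1 at 19.8 ± 0.904 TPM. With the longest transcript as length, Fst came before Acvr1b. Acvr2a followed at 10.8 ± 0.292 TPM. Acvr2b (1.24 ± 0.157 TPM) and Fstl3 (1.17 ± 0.374 TPM) overlapped, Inhba stood at 0.0943 ± 0.024 TPM, and Inhbb was at 0. Both ligand genes were thus at the bottom of the order in UV2, below every receptor and follistatin family gene of the set.

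Fst was set against the ligand genes within each library. Per length, there were 4.94, 2.21 and 1.44 Fst transcripts for each Inhba plus Inhbb transcript in bEnd.3 replicates 1, 2 and 3. In UV2 replicates 1, 2 and 3 there were 358, 175 and 202. With this length the ratio was thus above 100 in each UV2 library and below 5 in each bEnd.3 library. The UV2 values rest on 3 or 4 Inhba counts a library. With the longest transcript as length, the means moved from 2.86 to 4.50 in bEnd.3 and from 245 to 385 in UV2. The ratio in bEnd.3 replicate 1 was then 7.76.

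**Figure D4:**
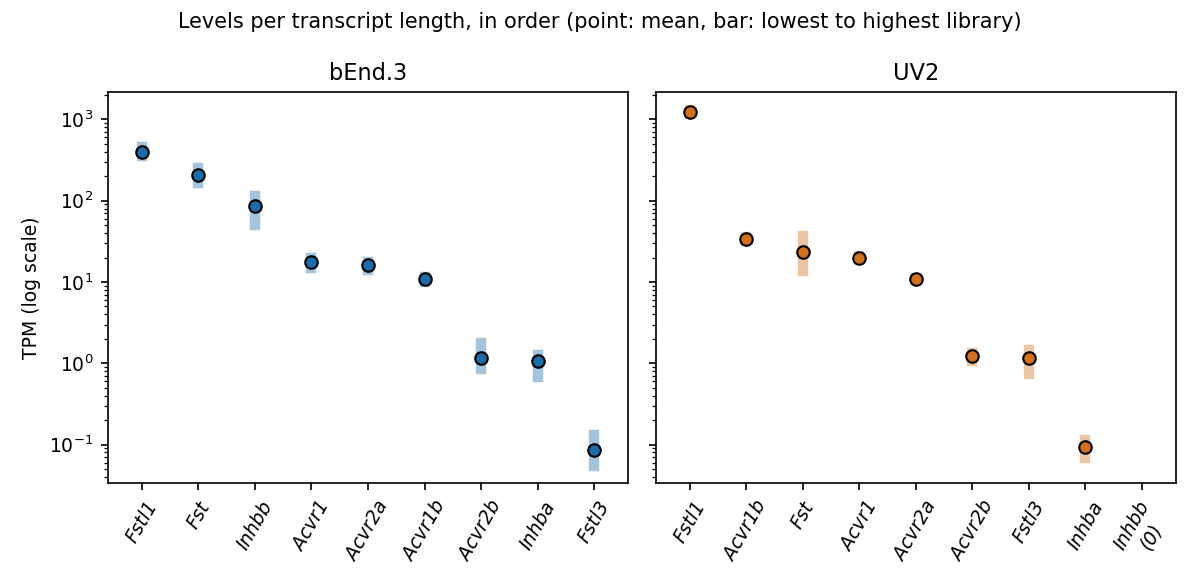
TPM on a log axis for each gene, ordered by its mean within bEnd.3 (left) and UV2 (right), as mean (point) and range from the lowest to the highest library (bar). Fstl1 leads in both lines, while Inhbb is the third of the order in bEnd.3 and is listed at 0 in UV2.

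The spread between libraries of a line, which played no part in the choice of the genes, was unequal among them. As the SD of log2(CPM + 0.5), it was 0.596 for Inhbb, 0.417 for Acvr2b, 0.366 for Inhba and 0.318 for Fst in bEnd.3, where the median of all tested genes was 0.128. Acvr1b (0.0862) and Fstl3 (0.0642, near the limit of detection) were below that median in bEnd.3. In UV2, Fst varied most, at 0.677 against a median of 0.104, with a 2.58-fold span between its libraries. Fstl3 (0.289) and Acvr2b (0.126) were above that median in UV2 as well, and Acvr1, Acvr1b, Acvr2a and Fstl1 were between 0.0466 and 0.0877. The UV2 value of Inhba (0.0884) is held down by the added 0.5 CPM, since its 3 or 4 counts a library gave a coefficient of variation of 25.1%. The ligand genes and Fst thus varied more between bEnd.3 libraries than most genes did, and Acvr1b did not. The medians are over genes of all levels. In bEnd.3 replicates 1, 2 and 3, Inhba rested on 25, 49 and 60 counts and Acvr2b on 19, 22 and 52. Counting error adds to the spread of both, and its part was not tested.

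Genes outside the set were ranked by how closely their log2(CPM + 0.5) pattern over the 6 libraries followed that of Inhbb and Inhba, each gene centred on its own mean. The 3 most like Inhbb were Ephb1, an ephrin receptor gene (root mean square difference 0.163), Chst2, a sulfotransferase gene (0.187), and Mn1, a transcriptional co-regulator gene (0.277). Ephb1 had 87.8 ± 19.9 CPM in bEnd.3 and 1 count in UV2, Chst2 had 189 ± 68.8 against 0.665 ± 0.217 CPM, and Mn1 had 115 ± 20.2 CPM in bEnd.3 and 0 counts in UV2 (n = 3 each). The 3 most like Inhba were Selenbp1 (0.0526), C2cd5 (0.0555) and C1qtnf2 (0.0685). Selenbp1 (1.19 ± 0.408 CPM) and C1qtnf2 (1.16 ± 0.359 CPM) were low in bEnd.3 and had 0 counts in UV2, where Inhba had 11. C2cd5 was far more abundant, at 61.8 ± 17.0 against 18.6 ± 1.04 CPM, and its fitted log2 difference of -1.73 was smaller than that of Inhba. The ranking, unlike the fit, used log2(CPM + 0.5), in which the added 0.5 CPM shrinks differences at low levels such as those of Inhba. Many genes differ between the lines, and these rankings are a description of 6 libraries.

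The wider pathway was read from 5 lists of 67 symbols, of which 66 were in the table (Ccn2 appears under its older symbol Ctgf) and 42 were tested. UV2 had more transcript of 18 and less of 14 of these by the test, and the other 10 were not called, where 33.9% and 33.3% of all tested genes were higher and lower. The median log2 difference was 0.0013, beside -0.01 for all tested genes.

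Other ligands of the activin class were almost silent. Of 10, 7 had 0 counts in both lines, among them Nodal and Mstn, and Gdf11 was the 1 that was tested. Gdf11, which signals through the same type II receptors, had 5.76 ± 0.633 against 8.54 ± 1.15 CPM (n = 3 each) and was higher in UV2 (log2 difference 0.57, SE 0.15, adjusted p = 0.0111).

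Among other receptors and co-receptors, 4 of 8 tested were higher in UV2 and 4 were lower. Tgfbr3, or betaglycan, a co-receptor that binds inhibin and TGF-beta, was higher in UV2, at 23.3 ± 1.28 against 121 ± 8.03 CPM (log2 difference 2.38, SE 0.08, adjusted p = 3.25e-07). Bmpr1a, a type I receptor for bone morphogenetic proteins, went from 0.354 ± 0.118 to 9.66 ± 1.95 CPM (log2 difference 4.75, SE 0.27, adjusted p = 4.05e-06). Its bEnd.3 mean was under the low-count filter's minimum of 0.419 CPM, so Bmpr1a was tested through UV2 only. The TGF-beta receptor genes split: Tgfbr1 was higher (32.03 ± 4.12 against 54.9 ± 5.15 CPM, adjusted p = 0.000579) and Tgfbr2 lower in UV2 (1482 ± 356 against 646 ± 52.2 CPM, log2 difference -1.20, adjusted p = 0.000527). Per length, Acvrl1 and Tgfbr2 exceeded the activin receptors in both lines, at 470.0 ± 71.3 and 715 ± 178 TPM in bEnd.3 and 814 ± 28.9 and 297 ± 20.2 TPM in UV2.

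Of the SMAD genes and their co-regulators, 5 of 15 tested were higher, 5 lower and 5 did not pass. The activin-responsive SMADs went opposite ways. Smad3 was higher in UV2 (45.6 ± 3.61 against 114.7 ± 3.72 CPM, log2 difference 1.33, SE 0.08, adjusted p = 4.16e-06), and Smad2 was slightly lower (60.2 ± 3.36 against 50.1 ± 2.25 CPM, log2 difference -0.26, SE 0.07, adjusted p = 0.0118). The Smad2 call was lost without bEnd.3 replicate 2 (adjusted p = 0.0524) or UV2 replicate 2 (0.0528). The shared partner Smad4 had 62.7 ± 2.48 and 64.02 ± 1.89 CPM and did not pass (adjusted p = 0.698). Of the inhibitory SMADs, Smad6 was higher in UV2 (log2 difference 1.37, SE 0.32, adjusted p = 0.0063). Smad7 did not pass, at 3.82 ± 0.713 and 2.77 ± 0.5096 CPM (adjusted p = 0.0899), but passed without bEnd.3 replicate 1 (adjusted p = 0.0325). Tgif2, a SMAD co-repressor, had the lowest difference of the list, at 15.1 ± 1.91 against 2.77 ± 0.1596 CPM (log2 difference -2.44, SE 0.14, adjusted p = 4.82e-06).

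Among other binding proteins and processing proteases, 2 of 5 tested were higher in UV2 and 2 lower. These small counts moved with single libraries. The higher genes became 4 without any 1 of the bEnd.3 libraries or UV2 replicate 3, and the lower genes became 1 without bEnd.3 replicate 2 or 3 or UV2 replicate 1 or 2. Furin, a protease that cleaves TGF-beta family precursors, had 225 ± 33.04 against 940.1 ± 152 CPM (log2 difference 2.06, SE 0.15, adjusted p = 1.53e-05). Pcsk6, a related protease, went the other way, with 399 ± 152 against 119 ± 32.8 CPM (log2 difference -1.74, SE 0.32, adjusted p = 0.00166).

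Genes known to respond to SMAD2 and SMAD3 in other cells moved both ways, with 6 of 13 tested higher and 3 lower in UV2, and 4 that did not pass. Their median log2 difference was 0.01. Ltbp2, a matrix protein of the latent TGF-beta binding family, went from 0.145 ± 0.0943 to 109 ± 60.8 CPM (log2 difference 9.51, SE 0.67, adjusted p = 1.22e-05). In bEnd.3 it was under the low-count filter's minimum of 0.419 CPM, so it was tested through UV2 only. Its call could thus only be higher, and its adjusted p adds no support. Pmepa1, a feedback inhibitor of SMAD signalling, went from 40.9 ± 4.09 to 1.52 ± 0.2301 CPM (log2 difference -4.73, SE 0.15, adjusted p = 2.17e-07). These lists also hold targets of TGF-beta and other signals, and no activin protein or SMAD phosphorylation was measured.

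**Figure D5:**
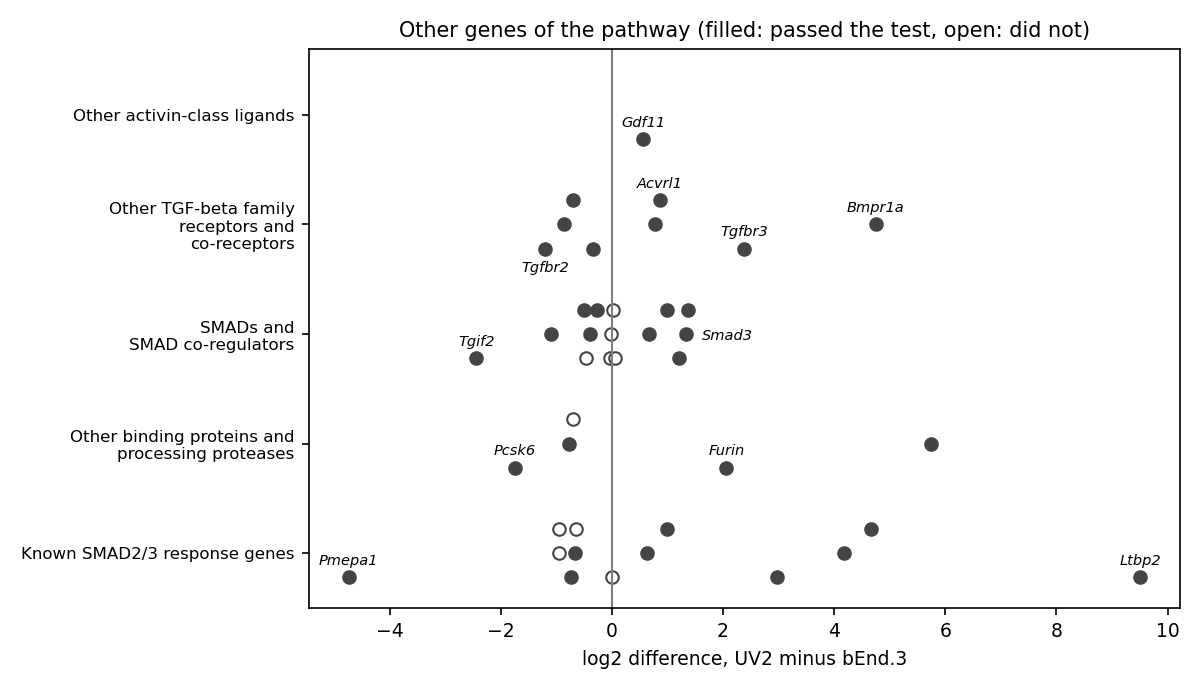
Log2 difference (UV2 minus bEnd.3, horizontal axis) of the 42 tested genes of the 5 wider lists, 1 point a gene, filled where the test was passed and open where it was not; heights within a list serve only to part the points. Points lie on both sides of 0 in each list with more than 1 tested gene.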

How the data were processed

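Samples were grouped by the cell line in their titles. Per the labels' protocols, cells were detached with trypsin-EDTA and TruSeq Stranded mRNA libraries were made. Tools named in the submitters' processing notes are RSEM, STAR and Trim Galore, and the build is mm10 (GRCm38). For their versions, the annotation and the strand setting, nothing is given in the sources used here. The table deposited by the authors holds their expected counts for each gene symbol, without normalization, and these were rounded to whole numbers here. Such counts divide a read among the genes it fits. Reads of BALB/c alleles can map less well to the C57BL/6 reference, and the effect on these genes was not tested.

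Genes were kept by filterByExpr (12720 of 24411) and fitted with edgeR 4.0.16 in R 4.3.3: TMM, the quasi-likelihood test, group as the only term and Benjamini-Hochberg adjustment over all tested genes, with calls at 0.05. A gene under the filter's minimum in every library of 1 line could be called only toward the other line, and the counts of calls include such genes. The procedure was tested on simulated data. TPM used the union of exons, matched by symbol for 95.8% of genes. The genes and lists were chosen with earlier results of these data known. Genes named from a wider list were its highest and lowest called gene whose higher line had 1 CPM or more, together with 10 always named (Smad2, Smad3, Smad4, Smad7, Tgfbr1, Tgfbr2, Tgfbr3, Acvrl1, Acvr1c and Inha). The marker lists, the 6 neighbours of Inhbb and the 3 genes most like Inhbb and Inhba were fixed by rule too, and genes named as 0 or as markers were picked after their values were seen.

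Replicate numbers in the titles were checked as pairs: deviations from the line means of same-numbered libraries correlated at 0.116, 0.2096 and 0.257 over tested genes. Libraries with different numbers correlated at -0.275 to 0.0783. The numbers were thus tried as pairs in a fit with a replicate block, given below. Every adjusted p above comes from a fit without the block and ignores any such pairing. This pairing comes from the data, not from a stated batch. No library was a copy of another, with a chi-square per degree of freedom of 11.3 to 38.4 within lines.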

Additional observations from a re-analysis of the deposited data

How the results depend on the processing

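Counts over all tested genes, over the 5 wider lists together, over the neighbouring genes and of the 9 genes beyond 2-fold stayed within 1.5 times of the values above under these alternatives: total counts or DESeq2's size factors as scaling, no filter or a filter of 1 CPM in 3 libraries, a block on replicate numbers, DESeq2 1.42.0, limma-voom (limma 3.58.1) and leaving out each library in turn. The 3 genes of the set more than 2-fold lower in UV2 stayed 3 in number throughout, and the 3 more than 2-fold higher became 2 with the filter of 1 CPM, where Fstl3 was not tested. Of the wider lists, 18 to 20 genes were higher and 11 to 15 lower when a library was left out, and 17 to 22 and 13 to 16 under the other alternatives. With the replicate block 18 were higher and 15 lower. List by list, only the counts of other binding proteins and processing proteases moved by more than 1.5 times, from 2 higher and 2 lower to 5 higher with no filter, 1 higher with the filter of 1 CPM and 1 lower in DESeq2, and to the values given in the report without single libraries. The count of genes whose libraries do not overlap was not recomputed. The block ended the calls of Chrd (adjusted p = 0.0551) and Tagln (0.0639), and Wfikkn1 (0.0261), Ctgf (0.0172) and Junb (0.00203) passed with it; it changed no other call in these lists or next to Inhbb. The cause was not tested.

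Leaving out a library moved the log2 difference of Acvr2b between -0.065 and 0.55, and it was the only one of the 9 to change sign. The fitted difference of Inhbb, a gene at 0 in UV2, followed the prior count. Its size is not used, but it enters the count of genes more than 2-fold lower and the median of the 9 genes. With a prior count of 2, the log2 difference was -2.92 for Inhba and 2.65 for Fstl3, both set by few counts in 1 line. The longest transcript as gene length was chosen after seeing the data.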
